A study of Rattus norvegicus with 12 samples.

Results

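The aminoacyl-tRNA synthetase genes were followed across a normal and a tumorigenic rat hepatic cell line, each exposed to vehicle or rapamycin. Members were taken by name from the array annotation, in which a feature is the set of probes that reads a transcript. Every feature was taken whose only symbol was a single capital letter followed by ars, ars1 or ars2, or was Eprs, Eprs1, Farsa or Farsb. Those of Aimp1 and Aimp2, which hold the multi-synthetase complex together, were added. This gave 34 genes on 53 of the 31042 features of the Affymetrix Rat Genome 230 2.0 array, out of 14217 named genes. Of these, 21 were counted as cytosolic and the 13 with symbols ending in 2, other than Aimp2, as mitochondrial. Gars1 and Kars1, counted as cytosolic, each encode both the cytosolic and the mitochondrial enzyme. For a gene with several features, the brightest over the 12 arrays was used, and others are given for some of the genes where they differed.

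WB-F344 is a normal diploid liver epithelial line from an adult male Fischer rat, with a doubling time of 42 hr, labelled as sensitive to rapamycin and not tumorigenic. WB311 arose spontaneously from WB-F344, doubled in 15.5 hr, and was labelled as resistant and tumorigenic. Plates of each line received DMSO vehicle or 50 nM rapamycin for 24 hr, and RNA from 3 plates of each of the 4 groups was hybridised. Each line stands for its phenotype alone, so line, tumorigenicity and growth rate cannot be told apart, and the p-values measure the spread between plates.

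Aminoacyl-tRNA synthetases attach each amino acid to its transfer RNA, the step that fixes the genetic code, and so supply every translating ribosome. Nuclear genes encode both sets: a cytosolic set, part of which is bound into the multi-synthetase complex, and a mitochondrial set that charges the transfer RNAs of the organelle. Rapamycin binds FKBP12 and inhibits mTOR complex 1, the kinase complex that couples nutrients and growth factors to protein synthesis. Many cytosolic synthetase genes are known targets of ATF4, a transcription factor that is induced when amino acids run short and that also lies downstream of mTOR complex 1.

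Hepatocyte transcripts were near the floor in all 4 groups: of 6 markers only transthyretin (Ttr, 90.4 to 115) reached 100 linear intensity units on any array, and albumin (Alb) read 30.9 to 36.7. Keratin 8 (Krt8) read 2222 to 3142 in WB-F344 and 5534 to 6279 in WB311, whereas the epithelial markers Cdh1 and Epcam read 13.9 to 22.7 in both lines. Of 7 mesenchymal markers, 6 averaged at least 100 in WB-F344 and 5 in WB311. The lines differed in other markers at both treatments: keratin 7 (Krt7) read 4637 to 6248 in WB-F344 and 68.6 to 156 in WB311, keratin 18 (Krt18) 16.4 to 28.5 and 165 to 271. The mesenchymal markers Col1a1 (7765 to 15945 against 196 to 248) and Tagln (4956 to 7488 against 60.1 to 102) were likewise far apart. Vimentin (Vim), also mesenchymal, was high in both lines, at 12882 to 15500 and 11083 to 11999. The endothelial marker Tek read 22.6 to 45.4 in WB-F344 and 940 to 1191 in WB311, while Pecam1 and Kdr read 14.7 to 20.4. Cd14, a leukocyte marker, read 501 to 610.4 with vehicle and 981 to 1208 with rapamycin in WB-F344. The other leukocyte markers, Ptprc, Cd68, Cd3e and Itgam, read 19.8 to 44.4 over all arrays. The part of these in the results was not tested. The plates numbered 2 of WB-F344 stood apart from the other 10 arrays. The Gapdh control features at the 3′ end exceeded those at the 5′ end there by 0.34 (vehicle) and 0.17 (rapamycin) on the log2 scale, against -0.12 to -0.04 on the other arrays. Of the 41 member features that averaged at least 100 in a WB-F344 group, 6, each of a different gene, read more than 0.5 log2 lower on both plates 2 than on the plates beside them, and 0 read more than 0.5 higher on both. Without both plates 2, the same 10 cytosolic and 2 mitochondrial genes described next were called in WB-F344.

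In WB-F344, transcripts of several cytosolic synthetases fell with rapamycin. A gene was tested where a group averaged at least 100 and was called at an adjusted p under 0.05 with a fold change of at least 1.2, by limma with Benjamini-Hochberg adjustment over all features tested. Of 21 cytosolic genes, all tested, 9 fell (Aars1, Aimp1, Aimp2, Cars1, Gars1, Tars1, Vars1, Wars1 and Yars1) and 1 rose (Qars1). Over all 8223 genes tested in this comparison, 17.4% fell and 7.81% rose. The median cytosolic change was -0.22 on the log2 scale against -0.07 for all genes, and 20 of 21 values were below 0 against 60.7% of all genes. Another scaling of the arrays (cyclic loess), which took the all-gene median to -0.002, gave a cytosolic median of -0.14, 16 values below 0 and 7 called genes. Rars1 and Sars1 passed the adjusted p but not the fold, as did the mitochondrial Yars2.

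The lowered genes charge tyrosine, threonine, valine, cysteine, tryptophan, glycine and alanine. Yars1, the tyrosyl-tRNA synthetase, read 1026, 1136 and 1102 with vehicle and 737, 772 and 777 with rapamycin. No rapamycin plate came near the vehicle plates, and the fall was 1.43-fold (log2 -0.51 ± 0.07 SE, adjusted p = 0.000208, limma). Tars1, the threonyl enzyme, read 1661, 2107 and 1702 with vehicle and 1204, 1423 and 1147 with rapamycin. The groups did not overlap although plate 2 was the highest in each, and the fall was 1.45-fold (log2 -0.53 ± 0.10, adjusted p = 0.00242, limma).

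For Cars1, the cysteinyl enzyme, the vehicle plates gave 797, 904 and 873 and the rapamycin plates 643, 611 and 622. It fell 1.37-fold (log2 -0.45 ± 0.07, adjusted p = 0.000805, limma). Of its 3 dimmer features, those at -0.35 and -0.19 on the log2 scale were not called. The dimmest, at 0.15, averaged under 100 in both groups and was not tested. Wars1, which charges tryptophan, gave 1164, 1313 and 1180.4 with vehicle and 929, 981 and 875 with rapamycin. Its fall was 1.31-fold (log2 -0.39 ± 0.07, adjusted p = 0.00205, limma). A second Wars1 feature, lower on the plates 2, was not called, at -0.33 ± 0.20.

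Vars1, the valyl enzyme, showed the largest change in WB-F344 and the widest spread among the called genes. Its vehicle plates read 366, 561 and 396 and its rapamycin plates 265, 364 and 265. The vehicle plates were all above the rapamycin plates, but only just: rapamycin plate 2 lay below the lowest vehicle plate by less than 2 units. The fall was 1.47-fold (log2 -0.56 ± 0.15, adjusted p = 0.018, limma). The call was lost without rapamycin plate 1 (log2 -0.48, adjusted p = 0.0703) or plate 3 (-0.48, 0.0739), and with the WB-F344 arrays fitted alone (adjusted p = 0.109) or by the two-group test of the study's methods (0.121). The fit of the WB-F344 arrays alone also lost Aimp2, Gars1 and Hars2 and left 7 cytosolic genes and 1 mitochondrial gene called.

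Gars1, the glycyl enzyme, read 2619, 3114 and 2675 with vehicle and 2163, 2321 and 2230.4 with rapamycin. Aars1, the alanyl enzyme, gave 2863, 2941 and 3069 against 2473, 2269 and 2426. Neither gene's groups overlapped, and the falls were 1.25-fold for Gars1 (log2 -0.32 ± 0.08, adjusted p = 0.00828, limma) and 1.24-fold for Aars1 (-0.31 ± 0.07, 0.00496). Under cyclic loess these became -0.25 for Gars1 and -0.23 for Aars1, under the fold limit. The Gars1 call was also lost without vehicle plate 2. A second Gars1 feature, lower on the plates 2, was not called, at -0.16 ± 0.27.

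Aimp1 and Aimp2 are not enzymes; they are scaffold proteins of the multi-synthetase complex. Aimp1 read 1178, 1169 and 1205 with vehicle and 985, 967 and 959 with rapamycin. Aimp2 read 1931, 1529.9 and 1734 and then 1402, 1301 and 1319. Both fell without overlap, Aimp1 by 1.22-fold (log2 -0.29 ± 0.06, adjusted p = 0.00389, limma) and Aimp2 by 1.29-fold (-0.36 ± 0.08, 0.00733). Aimp1 went under the fold limit with cyclic loess (-0.20), and its second feature, at -0.19, was not called.

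Qars1, the glutaminyl enzyme, moved the other way. It read 1816, 1922 and 1989 with vehicle and 2474, 2431 and 2369 with rapamycin, so every rapamycin plate was above every vehicle plate. The rise was 1.27-fold (log2 0.35 ± 0.06, adjusted p = 0.00207, limma) and 0.43 with cyclic loess. In WB311 the same gene went from 1899.7, 1776 and 1948 to 2151, 2170.1 and 2133, also without overlap, but at 1.15-fold (0.20 ± 0.06, adjusted p = 0.126) it was not called.

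The plot of the rapamycin response sets the 2 lines beside each other for each gene.

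**Figure D1:**
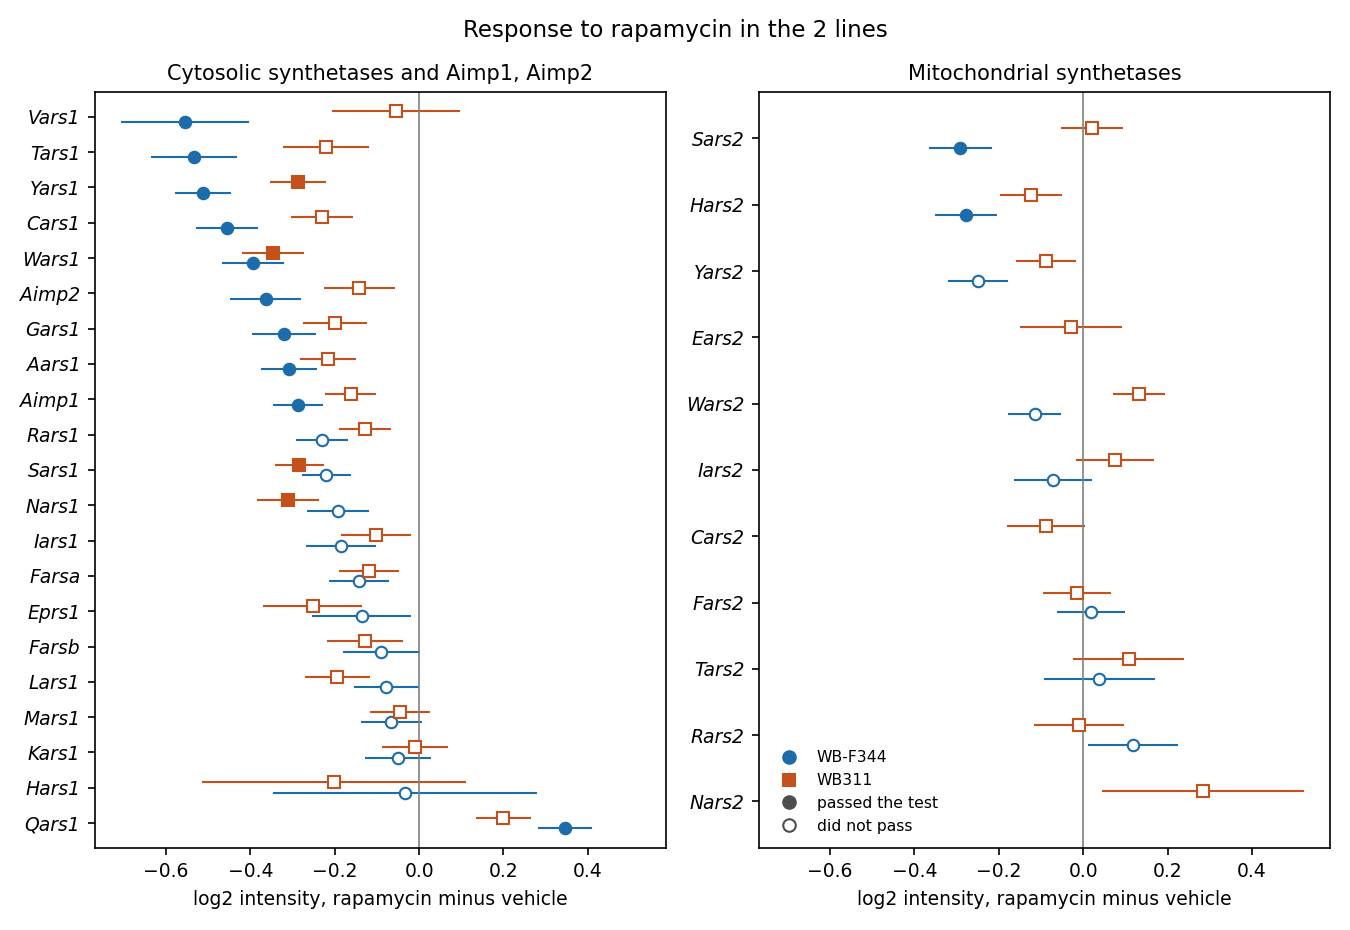
Log2 difference between rapamycin and vehicle (horizontal axis; 3 plates a group, bars are 1 SE from limma) for each cytosolic gene (left) and each mitochondrial gene tested (right) in WB-F344 (circles) and WB311 (squares), filled where the gene was called. All cytosolic values but those of Qars1 lie left of 0 in both lines, with medians of -0.22 and -0.19, whereas the mitochondrial values lie on both sides.

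Within the cytosolic enzymes, on the features used, the genes called lower with rapamycin lay outside the multi-synthetase complex, while Qars1, which belongs to it, was called higher in WB-F344; this division was drawn after the values were seen. Of the 7 enzymes of the complex (Eprs1, Iars1, Kars1, Lars1, Mars1, Qars1 and Rars1) 0 were called lower in WB-F344 by limma (Rars1 passed the adjusted p but not the fold, and Iars1 an unadjusted p under 0.05), with a median of -0.08, while 7 of the 12 enzymes outside it fell, with a median of -0.31. In WB311 the counts were 0 of 7 (Lars1 passed an unadjusted p under 0.05) and 4 of 12, with medians of -0.10 and -0.22. Over all genes tested, 17.4% fell in WB-F344 and 2.05% in WB311. The scaffold genes of the complex, Aimp1 (-0.29) and Aimp2 (-0.36), were called lower in WB-F344 and not called in WB311. This contrast between enzymes was not tested. It also depends on the feature for Eprs1, the fused glutamyl-prolyl enzyme: the feature used changed by -0.14 ± 0.12, but a second read 1672, 2036 and 1854 with vehicle and 1387, 1372 and 1408 with rapamycin and was called lower (-0.41 ± 0.09, adjusted p = 0.00589, limma). Eef1e1, a further protein of the complex, changed by -0.09.

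Hars1, the histidyl enzyme, could not be judged from the feature used. It read 1581, 643 and 1628 with vehicle and 1414, 769 and 1422 with rapamycin, the plates numbered 2 standing far below the others in both groups. Its change was -0.03 with a standard error of 0.31. The dimmer Hars1 feature was also lowest on those plates, by less: it read 646, 615 and 717 with vehicle and 579, 549.5 and 608 with rapamycin, and changed by -0.19.

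Of 13 mitochondrial genes, 8 averaged at least 100 in a WB-F344 group and 2 of them, Hars2 and Sars2, fell with rapamycin, where 17.4% of all genes fell. Their median change was -0.09, near the -0.07 of all genes, and 5 of 8 were below 0. Sars2, the seryl enzyme of mitochondria, read 106, 104 and 111 with vehicle and 87.9, 86.8 and 87.4 with rapamycin. The plates of each group lay close together and apart from the other group, at 1.22-fold lower with rapamycin (log2 -0.29 ± 0.07, adjusted p = 0.0127, limma). Sars2 averaged at least 100 only with vehicle (106.9 against 87.4), so it was tested through the group in which it was higher. Hars2, the histidyl enzyme, gave 163, 161 and 158 against 134, 141 and 123, a 1.21-fold fall (-0.28 ± 0.07, adjusted p = 0.0154).

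The Hars2 call was lost without rapamycin plate 3 and with cyclic loess (-0.25), and its second feature was not called, at -0.14. Aars2, Cars2, Ears2, Nars2 and Vars2 averaged under 100 in both WB-F344 groups and were not tested there. Among them Aars2, the alanyl enzyme, read 65.6, 83.3 and 69.5 with vehicle and 36.1, 63.8 and 54.1 with rapamycin. Mitochondrial features were dim throughout, from 36.1 to 528 over all arrays, and the part of this in their changes was not tested.

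WB311 responded in the same direction for the cytosolic genes, with fewer calls. Of 21 cytosolic genes 4 fell (Nars1, Sars1, Wars1 and Yars1) and none rose by limma (1, Qars1, at an unadjusted p under 0.05), where over all 8156 genes tested 2.05% fell and 1.70% rose. The cytosolic median was -0.19 against 0.00 for all genes, and 20 of 21 values were below 0 against 49.1% of all genes. Of the 11 mitochondrial genes tested, 0 were called by limma, 0 had an unadjusted p under 0.05 and 0 were called by the two-group test of the study's methods. Their median was -0.01.

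Wars1 in WB311 read 1483, 1459.5 and 1546 with vehicle and 1131, 1227 and 1176 with rapamycin. Yars1 read 3217, 3142 and 3176 and then 2473, 2723 and 2625. In both genes the rapamycin plates were all lower, Wars1 by 1.27-fold (log2 -0.35 ± 0.07, adjusted p = 0.0254, limma) and Yars1 by 1.22-fold (-0.29 ± 0.07, 0.0371). These were the 2 genes lowered in both lines on the features used. The second Wars1 feature was not called in WB311 either, at -0.42 ± 0.20 (adjusted p = 0.317, limma).

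Nars1, the asparaginyl enzyme, went from 6157, 6007 and 5968 to 4997, 4626 and 5013 in WB311. Sars1, the cytosolic seryl enzyme, went from 2983, 2896 and 2827 to 2321, 2430.2 and 2400.1. Again no plates overlapped, and the falls were 1.24-fold for Nars1 (log2 -0.31 ± 0.07, adjusted p = 0.0413, limma) and 1.22-fold for Sars1 (-0.28 ± 0.06, 0.0217). In WB-F344 they went from 3284, 3068 and 3509 to 2963, 2683 and 2976 (Nars1, -0.19 ± 0.07, adjusted p = 0.0745) and from 2439.9, 2512 and 2446 to 2121, 2115 and 2115 (Sars1, -0.22 ± 0.06, 0.0155), Nars1 short of a call by both limits and Sars1 by the fold.

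The 4 calls in WB311 were fragile. Leaving out any 1 of the 6 WB311 arrays brought the count to 0, with adjusted p-values of at most 0.177 (Nars1), 0.102 (Sars1), 0.109 (Wars1) and 0.145 (Yars1). Without WB-F344 rapamycin plate 1, which enters only through the shared variance, 2 were called. By the order of the plates alone, 15 of 21 cytosolic genes had all 3 rapamycin arrays below all 3 vehicle arrays in WB311, where 20.2% of all genes did, and 13 of 21 in WB-F344, where 26.5% did. For mitochondrial genes it was 1 of 11 (Yars2) in WB311 and 4 of 8 in WB-F344.

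The other genes lowered in WB-F344 were not called in WB311. Tars1 went from 2006, 1951 and 1993 to 1681, 1786 and 1642 there (log2 -0.22 ± 0.10). Cars1 went from 1519, 1615 and 1647 to 1328, 1448 and 1301 (-0.23 ± 0.07). Rapamycin plates of both lay below all vehicle plates, as did those of the next pair. Gars1 went from 6089, 6129 and 6187 to 5146, 5558 and 5327 (-0.20 ± 0.08). Aars1 went from 3728, 3594 and 3693 to 3013, 3322 and 3157 (-0.22 ± 0.07). The scaffold genes separated by a smaller margin. Aimp1 went from 1167, 1258 and 1196 to 1058, 1093 and 1084 (-0.16 ± 0.06). Aimp2 went from 1469, 1538 and 1484 to 1347, 1419 and 1306 (-0.14 ± 0.08). Vars1 was the exception: it read 434, 416 and 417 with vehicle and 399, 419 and 402 with rapamycin, and these overlapped (-0.05 ± 0.15). The mitochondrial Sars2 also overlapped, at 113, 121 and 106 against 114, 108 and 124 (0.02 ± 0.07). So did Hars2, at 193, 194 and 176 against 163, 173 and 179.6 (-0.12 ± 0.07).

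**Figure D2:**
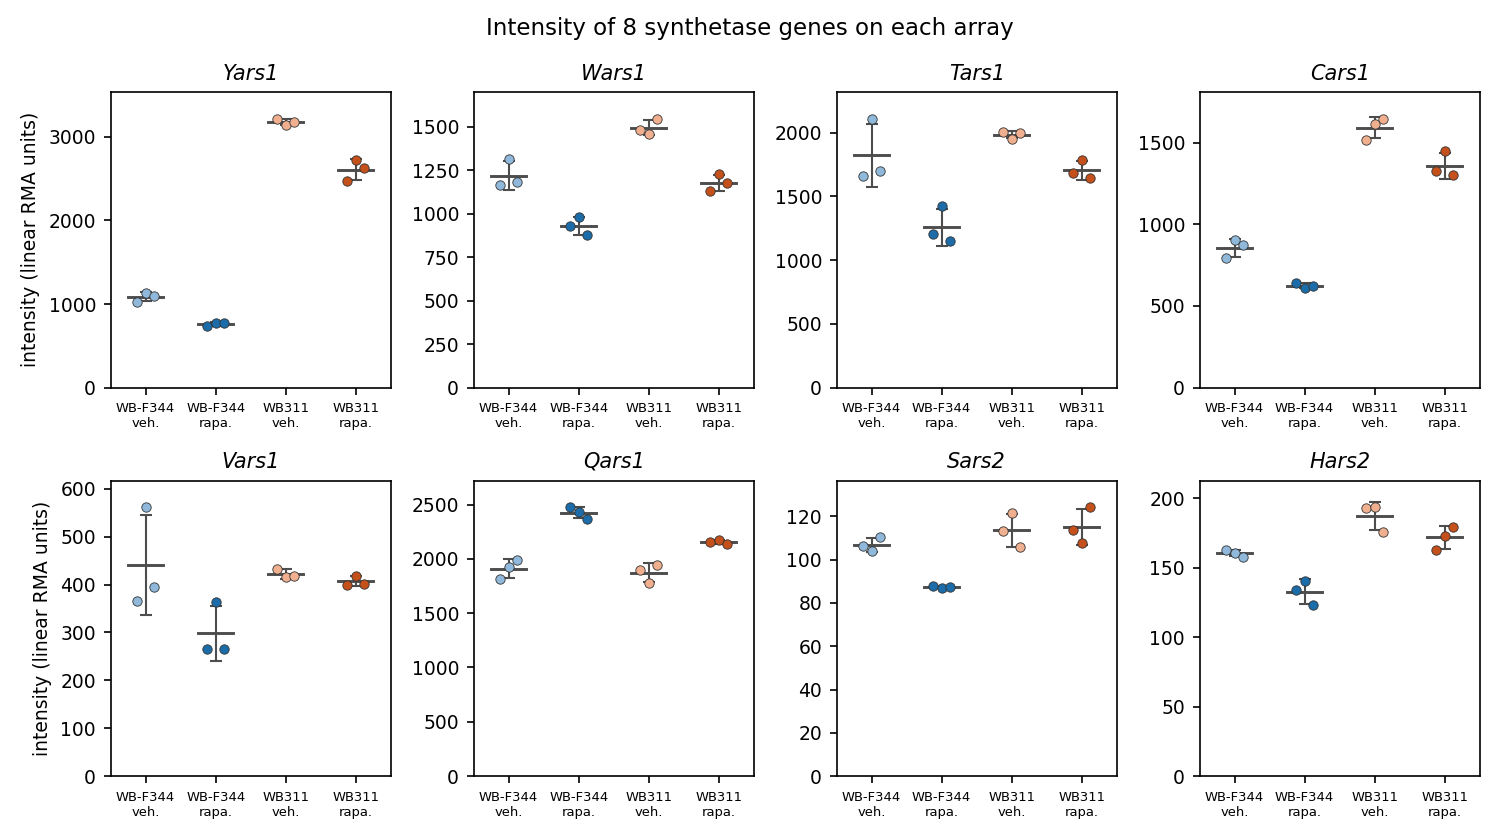
Linear intensity (vertical axis, from 0) of 8 synthetase genes on each of the 12 arrays: points are plates 1 to 3 from left to right, lines the mean and bars 1 SD. Rapamycin plates of Yars1, Wars1, Tars1 and Cars1 lie below vehicle plates in both lines, those of Qars1 above, and those of Vars1, Sars2 and Hars2 below in WB-F344 with overlap in WB311.

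Whether the response differed between the lines was tested as an interaction, the effect in WB311 minus that in WB-F344. Of 8660 genes tested, 7.98% were called with a more positive effect in WB311 and 3.60% with a more negative one. Among the 21 cytosolic and 11 mitochondrial genes tested, 0 were called by limma, and 4 had an unadjusted p under 0.05: Vars1, Yars1, Sars2 and Wars2. The differences were 0.50 for Vars1 (95% interval 0.03 to 0.97, adjusted p = 0.178, limma), 0.23 for Yars1 (0.02 to 0.43, 0.168), 0.31 for Sars2 (0.08 to 0.54, 0.0865) and 0.25 for Wars2 (0.06 to 0.44, 0.101). The median difference was 0.05 for the cytosolic and 0.09 for the mitochondrial genes, beside 0.06 for all genes. With cyclic loess the cytosolic median turned to -0.02.

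The sample labels number the plates but do not say that they were paired. In WB-F344 agreement by number was clear only for the plates 2 (correlation of deviations over genes 0.87). Those numbered 1 and 3 deviated together about as much across numbers (0.61 and 0.58) as within a number (0.68 and 0.56). When plate number was all the same taken as a block within each line, Vars1 (0.50 ± 0.10 SE, adjusted p = 0.00635, limma) and Tars1 (0.31 ± 0.10, 0.0464) were called in the interaction. Vars1 was also called without WB-F344 rapamycin plate 2 (0.65, adjusted p = 0.0462) and without both plates 2 (0.47, 0.00628), and Sars2 where genes under the fold limit were dropped before adjustment (adjusted p = 0.028).

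Pairs that serve the same amino acid in the 2 compartments were set side by side. In WB311 the cytosolic value was the lower in 12 of 12 pairs whose mitochondrial gene was tested, and in WB-F344 in 7 of 9. For threonine in WB-F344, Tars1 changed by -0.53 and Tars2 by 0.04 on the log2 scale. For arginine the values were -0.23 (Rars1) and 0.12 (Rars2), and for tyrosine -0.51 (Yars1) and -0.25 (Yars2). Histidine and serine went the other way in that line, with Hars1 at -0.03 ± 0.31 against Hars2 at -0.28 ± 0.07, and Sars1 at -0.22 ± 0.06 against Sars2 at -0.29 ± 0.07. The dimmer Hars1 feature changed by -0.19. No gap within a pair was tested. In WB311, tryptophan gave -0.35 (Wars1) against 0.13 (Wars2) and asparagine -0.31 (Nars1) against 0.28 (Nars2, ± 0.24). Farsa and Farsb, subunits of the cytosolic phenylalanyl enzyme, were both paired with Fars2.

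**Figure D3:**
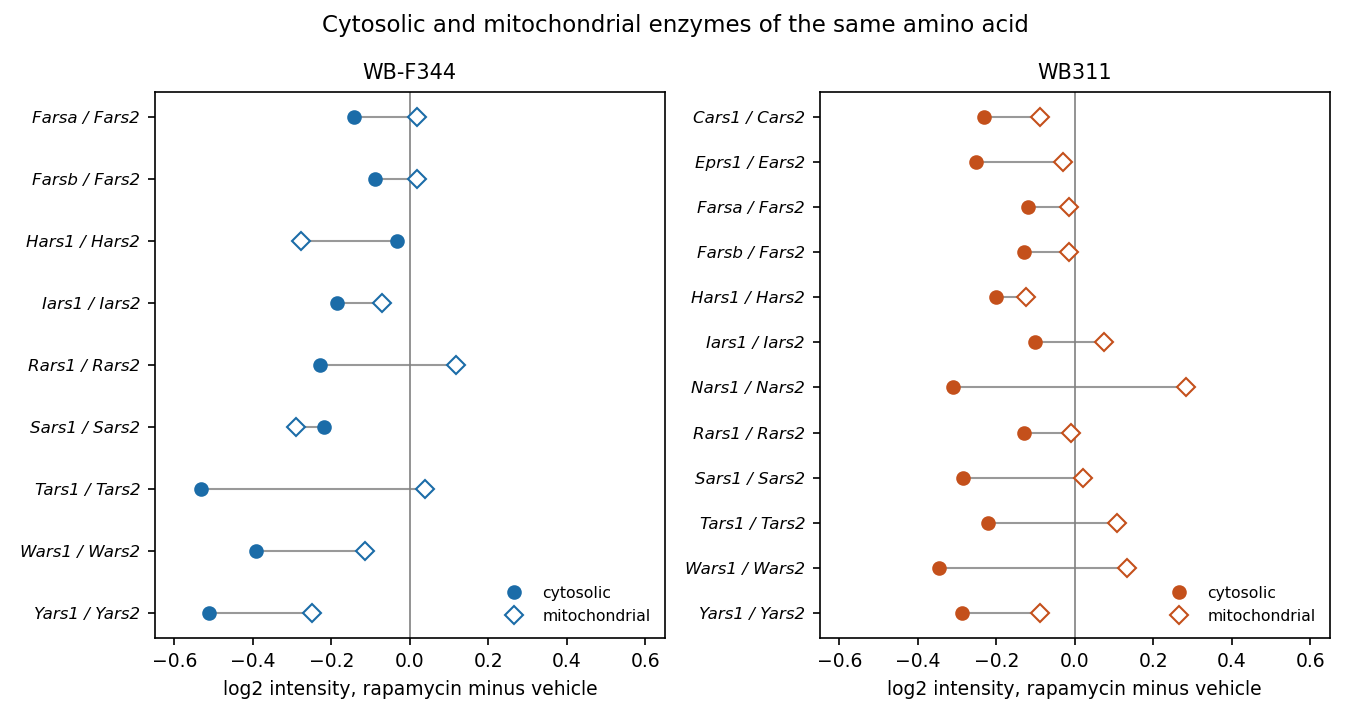
Log2 difference between rapamycin and vehicle (horizontal axis) of the cytosolic (filled circle) and mitochondrial (open diamond) enzyme for the same amino acid, in WB-F344 (left, 9 pairs) and WB311 (right, 12 pairs). The filled circle lies left of the diamond in 7 of 9 and 12 of 12 pairs; pairs whose mitochondrial gene averaged under 100 are left out.

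Between the lines, many cytosolic synthetases stood higher in the tumorigenic line. With vehicle, 12 of 21 were higher in WB311 and none lower by limma (1, Aimp2, at an unadjusted p under 0.05), while 28.0% of the 8522 genes tested were higher and 28.8% lower. The median difference, WB311 minus WB-F344, was 0.31 on the log2 scale against 0.00 for all genes. With rapamycin in both lines, 13 were higher and none lower (all genes, 34.1% and 27.0%; Qars1 at -0.17 passed the adjusted p, at 0.0338 by limma, but not the fold), and the median was 0.40 against 0.06. Tars1 and Vars1 were added with rapamycin and Eprs1 was no longer called on the feature used. A second Eprs1 feature was called higher at both treatments, at 0.38 with vehicle (adjusted p = 0.00323, limma) and 0.46 with rapamycin (0.00073).

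Among the features used, Yars1 differed most: its WB311 vehicle plates at 3142 to 3217 were 2.92-fold above the WB-F344 plates at 1026 to 1136 (log2 1.55 ± 0.07, adjusted p = 9.40e-10, limma). Gars1 was 2.20-fold higher (1.13 ± 0.08, 6.13e-08) and Cars1 1.86-fold (0.89 ± 0.07, 4.04e-07). A second Gars1 feature, which read lower on the WB-F344 plates 2, was 3.22-fold higher (1.69 ± 0.27, adjusted p = 0.000142, limma). Next came Nars1 (0.88), Lars1, the leucyl enzyme (0.83), and Farsb (0.80), whose partner subunit Farsa was at 0.01 ± 0.07. Kars1, Iars1, Mars1, Eprs1, Aars1 and Wars1 were higher by 0.30 to 0.42. The genes lowered by rapamycin in WB-F344 were not all among them: Tars1, Vars1, Aimp1 and Aimp2 were not called between the lines with vehicle (0.13, -0.04, 0.03 and -0.20).

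After rapamycin, WB311 still read above untreated WB-F344 for the cytosolic enzymes that differed most between the lines with vehicle. The WB311 rapamycin plates of Yars1 (2473 to 2723), Gars1 (5146 to 5558), Cars1 (1301 to 1448) and Nars1 (4626 to 5013) were all above the WB-F344 vehicle plates. For Wars1 they were not: 1131, 1227 and 1176 against 1164, 1313 and 1180.4. Yars1, Gars1, Cars1 and Nars1 each had a vehicle difference between the lines larger than its fall in WB311. The order of their plates therefore follows from the choice of these genes. The share of all genes with such an order was not counted.

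Mitochondrial genes were called in both directions between the lines. Rars2, the arginyl enzyme, read 154, 152 and 118 in WB-F344 with vehicle and 146, 169 and 143 with rapamycin. In WB311 it read 385, 368 and 404 and then 368, 405 and 376. The lines were far apart and the treatments overlapped, so that WB311 was 2.75-fold higher with vehicle (log2 1.46 ± 0.11, adjusted p = 1.41e-07, limma). Wars2 (0.35 ± 0.06) and Yars2 (0.43 ± 0.07) were also higher, although a second Wars2 feature read the other way and was not called (-0.20 ± 0.10).

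Iars2 and Tars2, the isoleucyl and threonyl enzymes of mitochondria, were called lower in WB311 with vehicle. Iars2 read 400.0, 397 and 363 in WB-F344 with vehicle and 294, 284 and 345 in WB311, a log2 difference of -0.33 ± 0.09 (adjusted p = 0.00742, limma). With rapamycin it read 358, 399 and 348 against 345, 303 and 323 and was not called (-0.19 ± 0.09, adjusted p = 0.0948, limma). Tars2 read 377, 528 and 417 against 331, 319 and 343 with vehicle (-0.40 ± 0.13, adjusted p = 0.019), and 439, 528 and 387 against 333, 387 and 351 with rapamycin. Its call with vehicle was lost without plate 2 of either vehicle group, without both WB-F344 plates 2 and by the two-group test of the study's methods (adjusted p = 0.0635), and its second feature, at -0.18, was not called. In all, 3 of 10 mitochondrial genes tested were higher and 2 lower with vehicle, where 28.0% and 28.8% of all genes were, and 6 and 1 with rapamycin, where 34.1% and 27.0% were. Of those 6, Ears2, Sars2 and Wars2 averaged under 100 in WB-F344 with rapamycin (90.9, 87.4 and 99.8). They were tested only through WB311, where they were higher. Hars2 was also among the 6, but its second feature was not called, at -0.06. The median vehicle difference of the mitochondrial genes fell to 0.09 when the features of a gene were averaged.

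**Figure D4:**
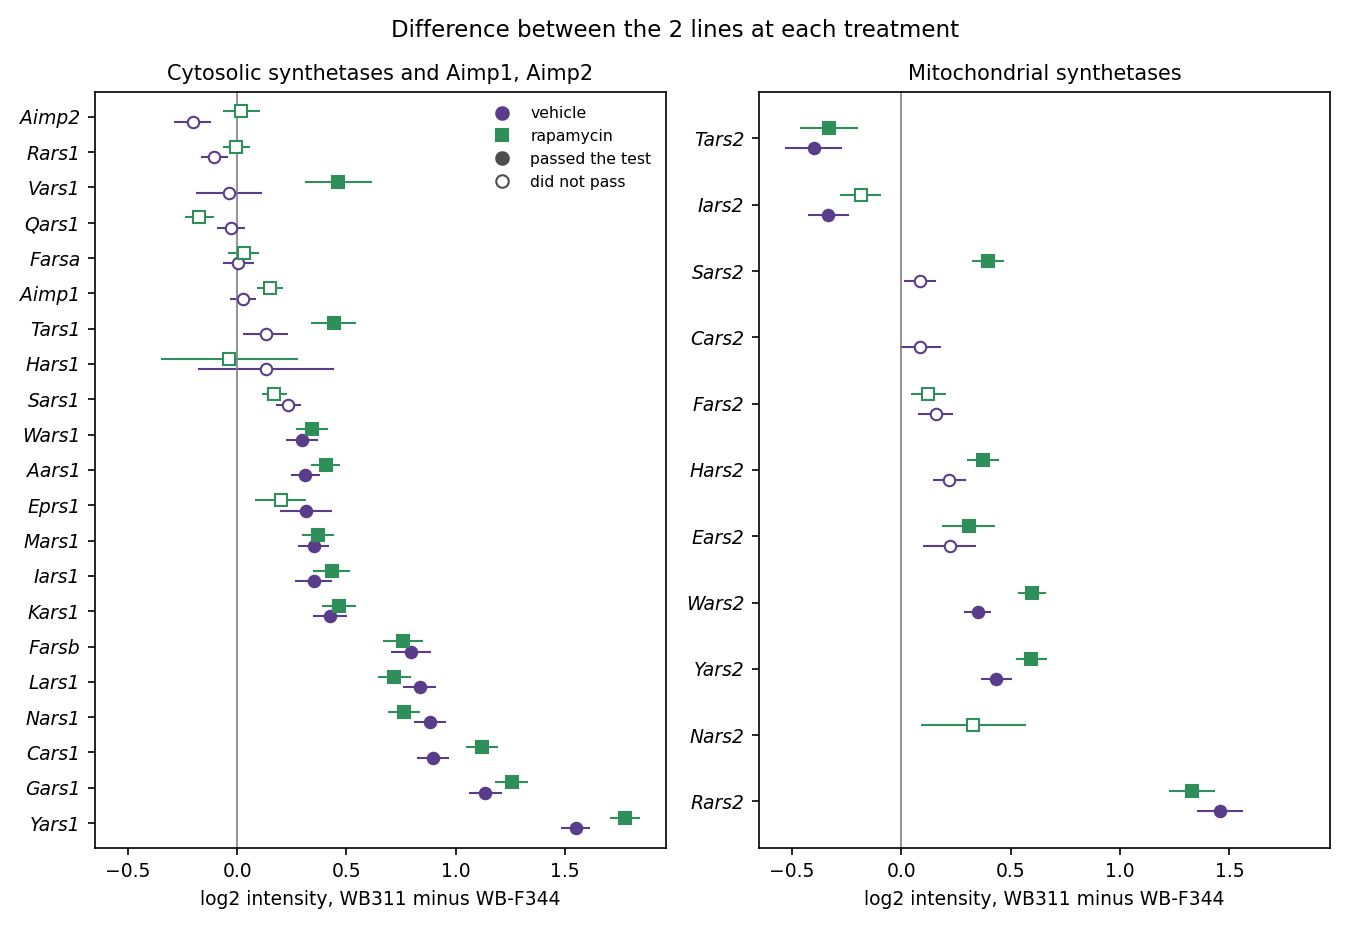
Log2 difference between WB311 and WB-F344 (horizontal axis, 3 plates a group, bars 1 SE from limma) with vehicle (circles) and with rapamycin (squares), filled where called, for cytosolic (left) and tested mitochondrial (right) genes. Yars1, Gars1 and Rars2 lie farthest right, above 1 at both treatments, and Tars2 and Iars2 left of 0.

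The medians per array put the 4 groups in order. Each gene was centred on its mean over the 12 arrays and the median over genes taken on each array. For the cytosolic genes this was -0.06 ± 0.05 (SD, n = 3) in WB-F344 with vehicle, -0.27 ± 0.04 with rapamycin, 0.24 ± 0.02 in WB311 with vehicle and 0.08 ± 0.04 with rapamycin. No array of a group overlapped an array of another group. For the 11 mitochondrial genes the values were -0.03 ± 0.01, -0.15 ± 0.12, 0.16 ± 0.04 and 0.12 ± 0.08. Here the lines did not overlap but the treatments did within each line.

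**Figure D5:**
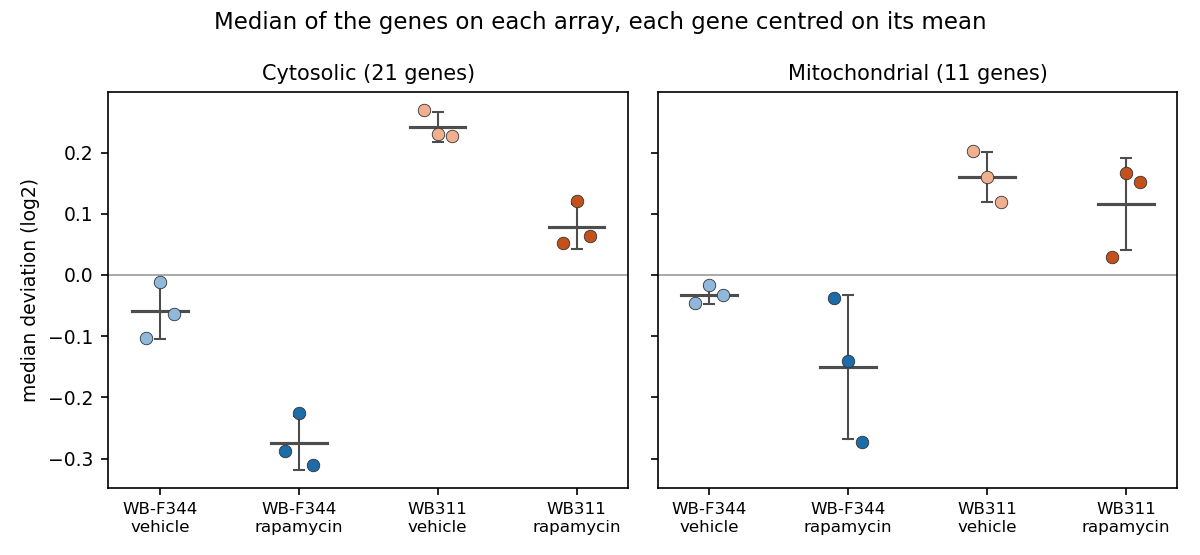
Median over 21 cytosolic (left) or 11 mitochondrial (right) genes of the log2 intensity on each array, each gene centred on its mean over 12 arrays (vertical axis); points are arrays, lines group means and bars 1 SD. The cytosolic medians separate all 4 groups, from -0.31 to 0.27, and the mitochondrial medians separate only the lines.

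The promoter sequences were searched for a short element that several cytosolic genes hold. The letters TGATGNAA, the core of the C/EBP-ATF composite element through which ATF4 can act, were searched on both strands from 250 bases before to 50 after the start that the RefSeq promoter table (GRCr8) gives for each gene. Of 34 members 32 had a sequence; Gars1 and Rars1 had none. That start lay inside the annotated span of the gene in 22 of the 32, by 1788 bases in Aars1, 127 in Mars1 and 64 in Iars1, so the bases before it can belong to the gene. A match was present in 7 of 19 cytosolic promoters (36.8%) and in 0 of 13 mitochondrial ones. It was present in 3.98% of all 33469 promoters and 3.35% of the 21851 of protein-coding genes. The cAMP response element (TGACGTCA) was found in 0 of 32 member promoters and 1.83% of all, so the searches did not overlap. The matches before the start are printed for Nars1 and Tars1, chosen because they hold one and their start is where the annotated gene begins. They are given 5′ to 3′ on the strand of the gene, capitals marking the match, with 30 bases before it and up to the start after it.
Nars1 (chr18:60275783-60275826, - strand): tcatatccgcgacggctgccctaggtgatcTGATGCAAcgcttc
Tars1 (chr2:62114803-62114859, - strand): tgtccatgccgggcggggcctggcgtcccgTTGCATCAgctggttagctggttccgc

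Cars1 and Yars1 matched at bases 18 and 39 after the start, and Aars1 again at base 10. In Iars1, Mars1, Nars1 and Tars1 the match began 14 to 27 bases before the start, and in Aars1 112 before. Iars1 and Mars1 were not called with rapamycin in either line. Of the 7 genes with a match, 4 fell with rapamycin in WB-F344 (median -0.31) and 6 were higher in WB311 with vehicle (median 0.35). Of the 12 without, 4 fell (median -0.14) and 5 were higher (0.18). Over all genes tested, 17.4% fell with rapamycin in WB-F344 and 28.0% were higher in WB311 with vehicle. Wars1, lowered in both lines, had no match, nor had Qars1, which rose. These are letters in a window: binding was not measured, and the difference between the groups of promoters was not tested.

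Genes of the amino acid response beyond the synthetases also fell. From a list of ATF4 targets and regulators, 16 of 22 tested fell in WB-F344, against 17.4% of all genes, with a median of -0.56, and Slc3a2, a subunit of amino acid transporters, read higher (0.26, adjusted p = 0.0263, limma) but under the fold limit. In WB311, 9 of 23 fell, against 2.05% of all genes, with a median of -0.35. With vehicle, 16 of 23 were higher in WB311 and 3 lower (median 0.79), against 28.0% and 28.8% of all genes. The smallest p-values in WB-F344 were those of Psat1 (log2 -0.83 ± 0.06), Psph (-0.92 ± 0.07) and Phgdh (-0.65 ± 0.06), which make serine, and of Ddit3 (-1.08 ± 0.10), a transcription factor of the stress response. In WB311 Psph (-0.59) and Ddit3 (-0.70) were called lower, but Psat1 (-0.26) and Phgdh (-0.19) were not called. In the interaction, 4 of 23 were called with a more positive effect in WB311, Psat1 and Phgdh among them. A more negative effect was called for 2. The shares of all genes were 7.98% and 3.60%. Atf4 itself changed by -0.18 ± 0.07 in WB-F344 (adjusted p = 0.0741, limma) and -0.19 ± 0.07 in WB311 (0.167). The TGATGNAA core was in 6 of 24 of these promoters (25%).

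Partners of the synthetases in transfer RNA charging were counted in the same way. Tars3 was counted here, since its symbol lay outside the pattern of the member names. Of 15 cytosolic partners 2 fell in WB-F344, where 17.4% of all genes fell: Xpot, which exports transfer RNA from the nucleus (-0.35 ± 0.06), and Aarsd1, which clears mischarged alanyl transfer RNA (-0.44 ± 0.09). Xpot was the 1 partner that fell in WB311 (-0.35 ± 0.06, adjusted p = 0.00806, limma). Eef1d, a subunit of the exchange factor of elongation, changed by -0.20 ± 0.06 and Prorsd1 by -0.29 ± 0.12, neither called. Of 6 mitochondrial partners tested, 3 fell in WB-F344: Tufm, the elongation factor that carries charged transfer RNA (-0.35 ± 0.06), Qrsl1, a subunit of the enzyme that makes glutaminyl transfer RNA (-0.34 ± 0.06), and Mtfmt, which formylates initiator methionine (-0.28 ± 0.07). In WB311 these 3 changed by -0.14, -0.16 and -0.19 and were not called.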

How the data were processed

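The deposited values, per the authors' methods, are linear intensities normalised by Robust Multiarray Average. They were taken as log2, and the array controls were left out. Gene names came from GEO's platform annotation. All features were fitted over the 12 arrays with limma 3.58.1 in R 4.3.3, with the authors' limits (average intensity of at least 100 in a group compared, adjusted p under 0.05 and 1.2-fold). The study's own test, a two-sample t-test, was an alternative. The members and lists were chosen with earlier results of these data known. Named members had their arrays printed where called with rapamycin or in the interaction, or among the 4 largest rises or falls between lines; of each list, up to 4 genes of smallest p were named. Same-numbered plates deviated together in WB-F344 (correlations 0.68, 0.87 and 0.56 over genes) but not in WB311 (-0.06, -3e-04 and -0.14), although WB-F344 rapamycin plate 3 was closer to vehicle plate 1 (0.61). Scripts were tested on simulated data. Protein sequences were not analysed here. No sequencing depth exists: the number of arrays limits the precision.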

Additional observations from a re-analysis of the deposited data

How the results depend on the processing

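With the plate number as a replicate block, 2 cytosolic genes responded differently in the 2 lines, Tars1 and Vars1, where none did without it, and the block moved no other count of members by over 1.5 times. Without both WB-F344 plates 2, chosen after seeing the data, the count was 1 (Vars1). Moderating variances over the tested features only, also chosen after seeing the data, changed no count. With no filter on intensity, 1 cytosolic gene was called in WB311 with rapamycin. Cyclic loess gave a cytosolic median of -0.14 for rapamycin in WB-F344, -0.0203 (the opposite sign) for the difference between the lines' responses and 0.32 for WB311 against WB-F344 with rapamycin, and left 1 mitochondrial gene called in WB-F344, as did fitting only the arrays of the groups compared. Applying the fold limit before adjustment gave 1 mitochondrial gene in the difference of responses (Sars2). Averaging the features of a gene gave a mitochondrial median of 0.0855 between lines with vehicle.

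Leaving out 1 array at a time, the cytosolic genes called numbered 9 to 10 in WB-F344 and 0 to 4 in WB311 with rapamycin, 0 to 1 in the difference of responses, and 11 to 13 with vehicle and 12 to 13 with rapamycin between lines. Mitochondrial counts were 1 to 3, 0 to 0, 0 to 0, 4 to 6 and 5 to 7. Cytosolic medians ranged from -0.25 to -0.22, -0.20 to -0.17, 0.03 to 0.08, 0.28 to 0.34 and 0.37 to 0.44 in the same order with vehicle before rapamycin, and mitochondrial medians from -0.12 to -0.08, -0.05 to 0.03, -0.035 to 0.19, 0.16 to 0.20 and 0.25 to 0.41. Calls of Cars1, Qars1, Sars2, Tars1, Wars1 and Yars1 in WB-F344 held in all 21 alternatives run for them. With 3 arrays a group, and mitochondrial features dim on every array, small differences could not be told apart from the spread between plates.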
